A study of Mus musculus with 8 samples.

Results

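The numbered zinc finger genes are the mouse genes whose symbol is Zfp followed by a number. Those described here are the rows of both RPKM tables (read density scaled to gene length and library size) that carry such a name and average 1 RPKM or more in the 2 untreated libraries. Zfp36, whose product has zinc fingers of another kind and binds RNA, was left out. The rule gave 250 rows with 248 names, out of 357 numbered zinc finger rows and 48676 rows in all. Zfp131 and Zfp319 have 2 rows each. The remaining 107 numbered rows lay below that level.

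The study compared nuclear RNA of NIH3T3 cells, an established line of mouse embryonic fibroblasts, under different stresses, to learn which genomic features go with transcription that runs past gene ends. The 8 libraries form 4 groups of 2. UN cells were untreated, HS cells were kept at 44 °C, KCL cells received 200 mM KCl as osmotic stress, and H2O2 cells received 0.2 mM H2O2 as oxidative stress, each for 2 h. All groups share the line, the medium and the enrichment of nuclei, so the values describe nuclear RNA of 1 immortalised line and not cytoplasmic or total RNA. Whether replicates are separate cultures is not in the labels. The p-values therefore reflect how these particular libraries scatter, and that scatter may be technical.

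C2H2 zinc finger proteins read DNA through arrays of small zinc-binding units, each of which contacts a few bases. Many of them also carry a KRAB domain, which recruits TRIM28 (KAP1) and with it the histone methyltransferase SETDB1 and HP1 proteins. Such KRAB proteins are best known for silencing retroelements and protecting imprints. Their genes lie in clusters that grew by duplication, so neighbours are often similar in sequence. Others without a KRAB domain act as activators, corepressor subunits or RNA-binding proteins.

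The KCL library of replicate 1 stood apart before any comparison. Its RPKM values summed to 1943000, of which the row AC113316.1 held 1025000, whereas the other 7 libraries summed to between 503400 and 771700. Malat1, an abundant nuclear RNA, was listed at 0 there and at 1844 to 2332 RPKM in the others. The members' summed level was 2087 RPKM in that library and 1466 to 1720 RPKM in the others. Of 9 fibroblast markers 8 reached 1 RPKM in every library, and 11 of 14 markers of other cell types stayed under 1 RPKM in every library. The fibroblast exception was Pdgfrb, at 0.298 to 1.11 RPKM. The others were the blood marker Cd68 at 8.39 to 28.6 RPKM and the muscle marker Des at 2.19 to 4.64 RPKM. The epithelial marker Cdh1 reached 1.01 RPKM in H2O2 replicate 1 only. Sequencing depth is unknown, because the tables hold no counts.

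Members were mostly low to moderate in level. In untreated cells 53 rows lay between 1 and 2 RPKM, 157 between 2 and 10 RPKM and 40 at 10 RPKM or more, with a median of 4.57 RPKM. The untreated level chose the members, so it is given without a test. Just inside the limit, mean untreated levels were 1.004 RPKM for Zfp689, 1.03 for Zfp628 and 1.04 for Zfp383. Just outside it they were 0.979 RPKM for Zfp39, 0.957 for Zfp595 and 0.931 for Zfp951. The members' median per library was 4.59 and 4.33 RPKM in UN, 3.92 and 4.19 in HS, 5.8 and 4.78 in KCL, and 3.73 and 4.2 in H2O2. Both KCL libraries had higher medians than the other 6.

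**Figure D1:**
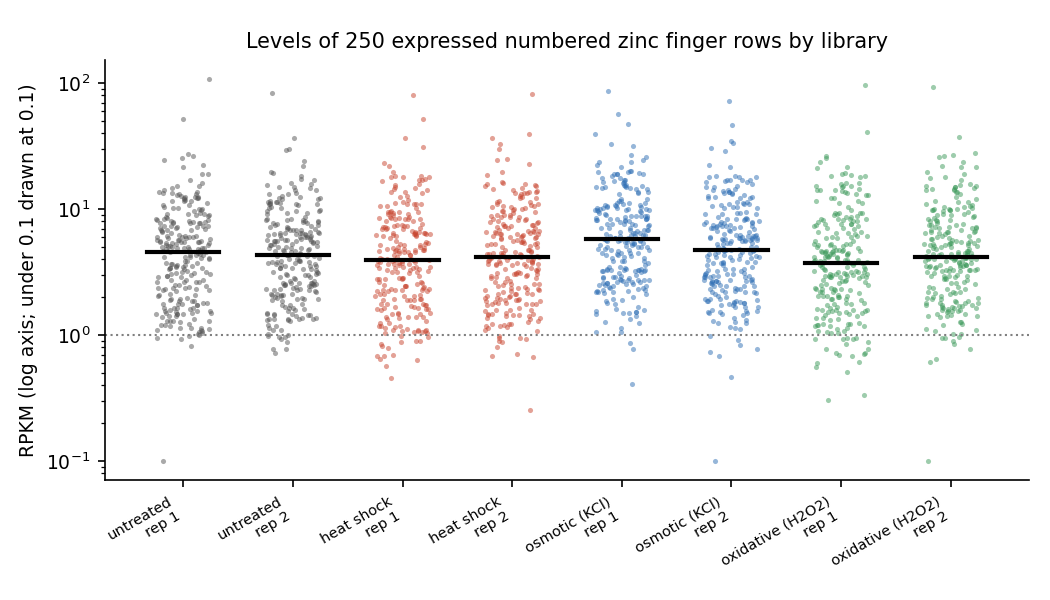
RPKM (log axis) of the 250 member rows in each of the 8 libraries; 1 point is 1 row, the thick bar is the median and the dotted line marks 1 RPKM, the limit used on the untreated mean. Medians lie between 3.73 RPKM (H2O2 replicate 1) and 5.8 RPKM (KCL replicate 1), and the points drawn at the bottom are Zfp938.

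The 5 highest members were Zfp207, Zfp740, Zfp57, Zfp106 and Zfp91. Zfp207 (BuGZ), which helps chromosomes attach to the mitotic spindle, had 108 and 83.7 RPKM in UN, 80.6 and 81.5 in HS, 86.5 and 72.2 in KCL, and 97.8 and 93 in H2O2. Zfp740 had 52.4 and 36.7 RPKM in UN, 37 and 36.9 in HS, 47.3 and 46.4 in KCL, and 40.9 and 37.5 in H2O2. Stress values lay within or overlapped the untreated range for both genes, except that both HS values of Zfp207 were below both UN values. Neither gene passed the limma test in any of the 6 comparisons. Zfp938 was the least stable member: it was near 0 in UN replicate 1 (0.0037 RPKM), KCL replicate 2 (0.00504 RPKM) and H2O2 replicate 2 (0.00469 RPKM), and at 1.51 to 3.86 RPKM in the other 5 libraries.

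What the members' proteins share was read from coding sequences. At least 1 C2H2 finger pattern was found in 242 of 248 member genes (97.6%), against 3.65% of all 21549 genes with a coding sequence. The members were picked by a zinc finger name, so this contrast was built into the rule. A KRAB-like pattern, adjusted 4 times against the list of matching member genes, was found in 119 member genes (48%), against 2.07% of all genes. The genes with it had a median of 12 finger matches and the others 7. The KRAB-like group had a lower untreated level, with a median of 3.22 RPKM against 5.64 RPKM. The pattern misses some genes that carry the domain, so the other group is not a group without KRAB. Of the member genes 63 lie on chromosome 7 and 34 on chromosome 17.

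Against untreated cells, few members were called in any stress. The 3 comparisons share the untreated libraries. Each comparison was a limma fit over all 16056 rows that reached 0.5 RPKM in 2 or more libraries, on log2(RPKM + 0.5), with Benjamini-Hochberg adjustment over all those rows. Every one of the 250 members passed this filter, and a row is called here when its adjusted p is under 0.05. On this scale the change of low rows is understated. The untreated libraries enter both the rule for members and these comparisons, so shares are set beside those of all tested rows and of the 13162 tested rows chosen by the same untreated level. In bulk RNA, a lower level in fewer cells and less RNA per cell cannot be told apart.

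In heat shock 4 members fell and none rose. The 4 are 1.6% of members. Of all tested rows 4.08% were called lower and 2.54% higher. Among rows of the same untreated level these shares were 4.79% and 1.94%. At an unadjusted p under 0.05, 13 members were higher and 27 lower, together 16% of members, beside 25.5% of all tested rows. The split of those rows by direction is not given. The members' split is therefore not a result about the members. The members' median log2 difference was −0.08, that of all tested rows −0.09 and that of rows of the same untreated level −0.12. With other scalings of the libraries the split of 0 higher and 4 lower became 5 and 5 (median of ratios), 3 and 6 (quantile), 0 and 0 (common sum), and 16 and 0 (common sum without the row AC113316.1). The median of all tested rows moved too, to −0.02 (quantile), 0.30 (common sum) and 0.23 (without that row). For the members it was −0.02, 0.34 and 0.27. Shares of all tested rows called under these scalings are not given, so the counts are not results about the members.

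Zfp580 had 1.92 and 1.57 RPKM in UN and 0.63 and 0.706 in HS, a log2 difference of −0.94 (SE 0.16, limma adjusted p = 0.028). Zfp936 had 2.09 and 2.22 RPKM in UN and 0.891 and 0.894 in HS, a log2 difference of −0.93 (SE 0.17, limma adjusted p = 0.03). Zfp764 had 2.97 and 2.59 RPKM in UN and 1.17 and 1.37 in HS, a log2 difference of −0.89 (SE 0.16, limma adjusted p = 0.0284). In all 3 genes both heat shock libraries lay below both libraries of every other group. Zfp110 (NRIF), which binds the neurotrophin receptor p75, had 19 and 22.1 RPKM in UN and 11 and 13.1 in HS, a log2 difference of −0.74 (SE 0.16, limma adjusted p = 0.0443). It is the most abundant of the 4, and its HS values too lay below those of all other groups. No member was called without any 1 of the UN, HS or H2O2 libraries, and 5 were without either KCL library. Leaving out each library in turn, Zfp580, Zfp764 and Zfp936 were still called in 2 of 8 fits and Zfp110 in none.

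Zfp57, a KRAB protein that maintains methylation at imprinted loci, had 27.5 and 29.3 RPKM in UN and 17 and 18.7 in HS. The log2 difference of −0.66 (SE 0.16) missed the threshold, with a limma adjusted p of 0.0602. Against KCL, where it had 32.9 and 28.9 RPKM, it was lower in HS by a log2 difference of −0.77 (SE 0.16, limma adjusted p = 0.0368). Zfp367 was higher in both HS libraries (52.1 and 39.7 RPKM) than in both UN libraries (25.3 and 19.5 RPKM), with a log2 difference of 1.02 (SE 0.27), and also missed it at a limma adjusted p of 0.0768.

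In osmotic stress no member was called by limma, beside 0.43% of all tested rows called higher and 0.262% called lower. Among rows of the same untreated level these shares were 0.296% and 0.319%. At an unadjusted p under 0.05, 44 members were higher and 4 lower, together 19.2% of members and 22.1% of all tested rows. The split of all tested rows by direction is again not given, so 44 against 4 is not a result about the members. The median log2 difference was 0.27 over the members, 0.18 over all tested rows and 0.19 over rows of the same untreated level. When libraries were scaled by the median of ratios, that of all tested rows moved to 0.01 and that of the members to 0.09. The member nearest to the threshold was Zfp317, with 7.29 and 7.93 RPKM in UN and 16.2 and 13.6 in KCL (log2 difference 0.92, SE 0.15, limma adjusted p = 0.057). Zfp119 lay furthest in the other direction, with 1.14 and 1.31 RPKM in UN and 0.412 and 0.466 in KCL (log2 difference −0.88, SE 0.16, limma adjusted p = 0.075). For both genes the groups did not overlap, but both were picked by their values, so this adds no support. Without KCL replicate 2 the count of members called was 6, all higher, and without KCL replicate 1 it was 0.

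In oxidative stress 1 member (0.4%) was called, and it was higher. Of all tested rows 1.29% were called higher and 0.193% lower. Among rows of the same untreated level these shares were 0.441% and 0.22%. Zfp365, whose human counterpart is a p53 target that acts in the upkeep of replication forks and telomeres, had 8.3 and 7.57 RPKM in UN and 14.3 and 15.8 in H2O2. Its log2 difference was 0.88 (SE 0.14, limma adjusted p = 0.0443), and it was called in none of the 8 fits that left out a library. In KCL it had 15.3 and 13.4 RPKM, values that overlap those in H2O2, with a limma adjusted p of 0.0645 against UN. It is 1 of 6 member genes in which no C2H2 pattern was found. At an unadjusted p under 0.05, 11 members were higher and 30 lower, together 16.4% of members, beside 17.9% of all tested rows. Here too the split of all tested rows by direction is not given, so the members' split is not a result about them. The members' median was −0.07, beside −0.10 over all tested rows and −0.14 over rows of the same untreated level.

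**Figure D2:**
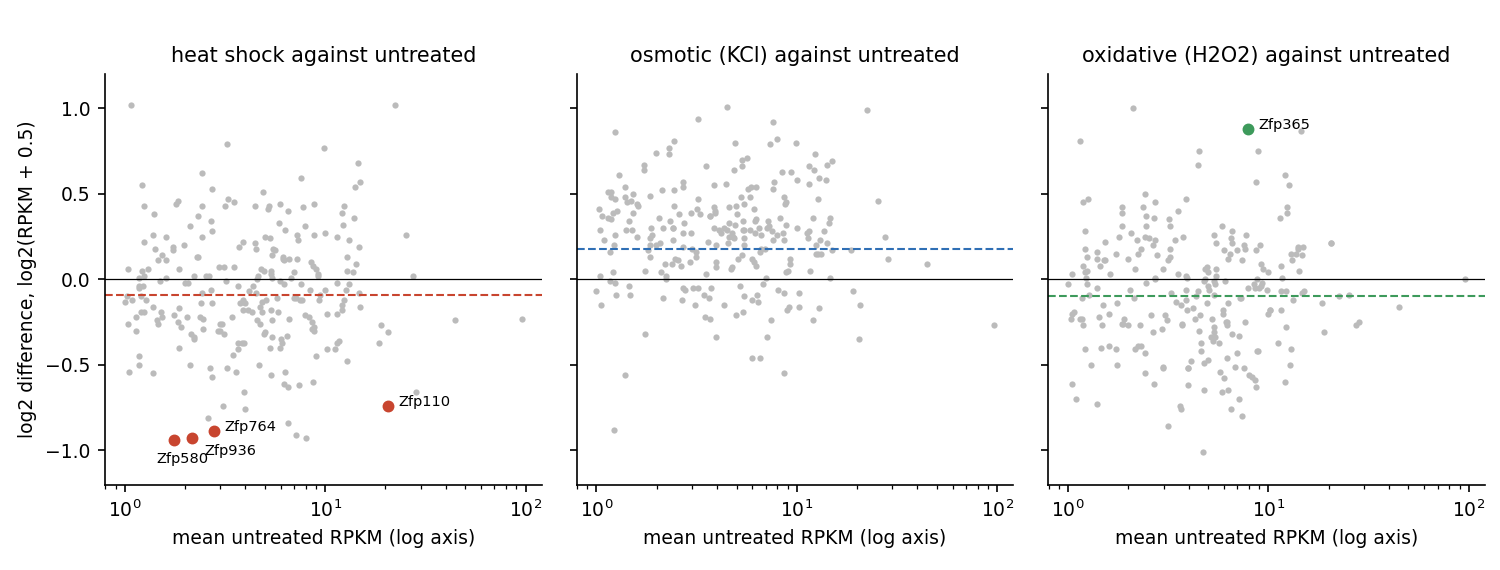
Log2 difference of each of the 250 member rows from untreated (y axis, on log2(RPKM + 0.5)) against its mean untreated RPKM (x axis, log), in 3 panels for heat shock, osmotic and oxidative stress. Coloured, named points passed limma's adjusted p of 0.05, grey points did not, and the dashed line is the median of all 16056 tested rows; 4 members lie low in heat shock, none is called in osmotic stress and 1 lies high in oxidative stress.

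Large differences were rare among members. A log2 difference of 1 or more in size was seen for 2 members (0.8%) in HS, 1 (0.4%) in KCL and 2 (0.8%) in H2O2 against UN, beside 7.19%, 5.06% and 3.18% of tested rows with the same untreated level. These shares describe the libraries and were not tested. In HS, 1 of the 2 members was Zfp938, with a log2 difference of 1.02 (SE 1.22). It had 0.0037 and 2.13 RPKM in UN and 1.91 and 1.75 in HS, so its difference rests on UN replicate 1.

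The stresses were then compared with each other. The levels compared come from libraries that the rule for members did not read, but the untreated libraries enter these tests through the shared estimate of the spread. Each stress group appears in more than 1 of these comparisons, so they share libraries. Between HS and KCL, 1 member was higher in HS and 8 were lower, or 0.4% and 3.2% of members, beside 1.78% and 6.42% of all tested rows. Between HS and H2O2, 9 were higher in HS and 14 lower, or 3.6% and 5.6%, beside 5.76% and 8.4%. Between KCL and H2O2, 35 were higher in KCL and 2 lower, or 14% and 0.8%, beside 14.2% and 5.14%. Among rows of the same untreated level the shares, in the same order, were 1.05% and 7.35%, 5.99% and 6.7%, and 16.7% and 3.37%. In the last comparison the members' median log2 difference was 0.36. That of all tested rows was 0.27 and that of rows of the same untreated level 0.34.

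The direction of the KCL and H2O2 calls moved with the scaling. The split of 35 higher and 2 lower became 7 and 9 (median of ratios), 8 and 7 (quantile), 0 and 1 (common sum), and 2 and 2 (common sum without the row AC113316.1). Here too, and for the other pairs of stresses, shares of all tested rows called under these scalings are not given. The counts are therefore not results about the members. With the median of ratios the members' median moved from 0.36 to 0.09 and that of all tested rows from 0.27 to 0.00, and with the common sum the members' median was −0.39. Without KCL replicate 1 or without H2O2 replicate 1 no member was called, without H2O2 replicate 2 there were 3, and without either HS library 1. Between HS and KCL, 1 higher and 8 lower became 1 and 0 with median of ratios, quantile or common sum, and 2 and 0 without the row AC113316.1. Between HS and H2O2, 9 higher and 14 lower became 0 and 0 with the common sum and 21 and 3 without that row. No member was called between HS and H2O2 without any 1 of their 4 libraries, nor between HS and KCL without either HS library or KCL replicate 1; between HS and KCL 5 were called without KCL replicate 2, and 2 without either H2O2 library. Without either UN library, 14 were called between HS and H2O2.

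**Figure D3:**
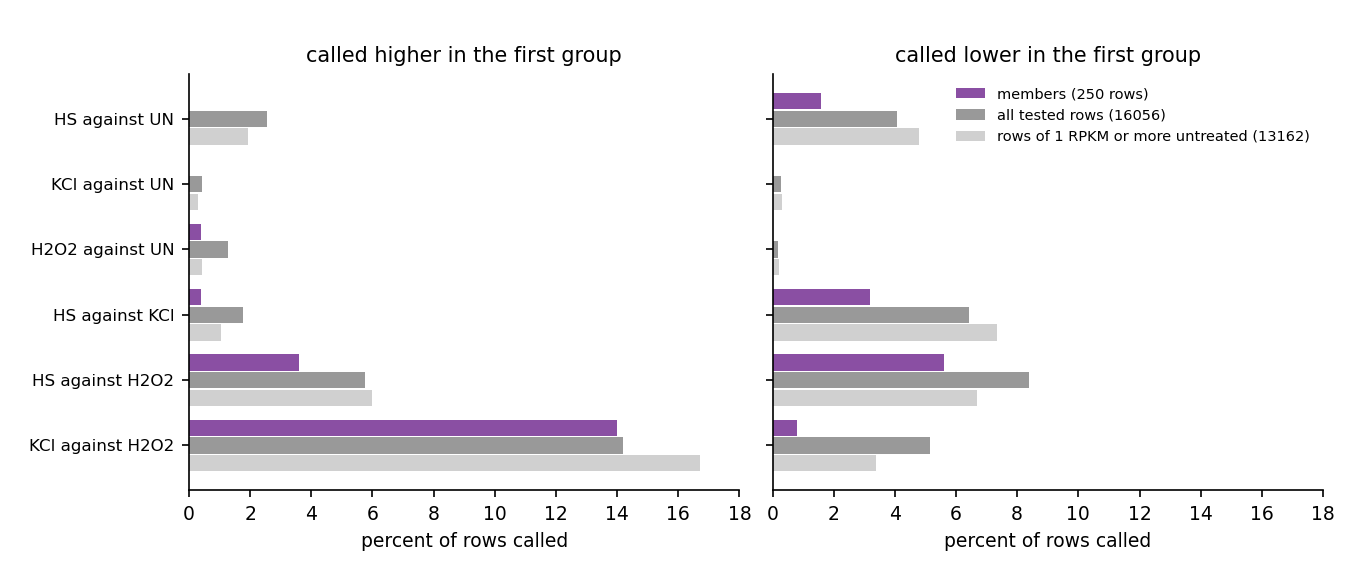
Percent of rows called by limma in each of 6 comparisons (y axis), higher in the first group on the left and lower on the right, for the 250 members, all 16056 tested rows and the 13162 tested rows with at least 1 RPKM untreated. The longest member bar is 14% for KCL over H2O2, beside 14.2% and 16.7% in the other sets.

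Zfp746 (PARIS), a repressor of Ppargc1a and a substrate of parkin, had the largest log2 difference of any member in the 3 comparisons between stresses. It had 15.2 and 11 RPKM in KCL and 3.64 and 4.33 in H2O2, a log2 difference of 1.59 (SE 0.20, limma adjusted p = 0.0153). In HS it had 8.33 and 8.95 RPKM, higher than in H2O2 by a log2 difference of 1.03 (SE 0.20, limma adjusted p = 0.0258), and in UN 8.21 and 6.47 RPKM. The untreated values thus lay between those of KCL and H2O2, and neither stress passed the test against them (limma adjusted p = 0.112 and 0.116).

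Zfp317 had the same order of group means. It had 16.2 and 13.6 RPKM in KCL, 11.2 and 12.2 in HS, and 6.05 and 6.61 in H2O2. The KCL group exceeded the H2O2 group by a log2 difference of 1.17 (SE 0.15, limma adjusted p = 0.0147), and HS exceeded H2O2 by 0.84 (SE 0.15, limma adjusted p = 0.0196). Zfp367 had 57.4 and 34.7 RPKM in KCL, 52.1 and 39.7 in HS and 19.4 and 22 in H2O2. Its differences from H2O2 were 1.09 for KCL (SE 0.27, limma adjusted p = 0.0398) and 1.12 for HS (SE 0.27, limma adjusted p = 0.0425). The KCL values of Zfp367 differed widely between replicates, and those of HS and H2O2 less so.

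Also higher in KCL than in H2O2 were Zfp763 (2.74 and 1.82 against 0.613 and 0.952 RPKM, log2 difference 1.11) and Zfp41 (5.36 and 4.36 against 2.14 and 1.93 RPKM, log2 difference 1.07). Zfp503 (Nolz1), a developmental repressor, was higher in HS than in H2O2 (2.23 and 1.59 against 0.597 and 0.614 RPKM), with a log2 difference of 1.11 (SE 0.29) and a limma adjusted p of 0.0497. Zfp846 was higher as well (3.86 and 3.04 against 1.17 and 1.87 RPKM, log2 difference 0.98). The groups named did not overlap in these 4 genes. The genes were picked as called with the same direction in both tables, which made this likely, so it adds no support.

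Members lower in HS included Zfp764 and Zfp936, which were below both KCL and H2O2. The log2 difference of Zfp764 was −0.83 from KCL and −1.03 from H2O2, and that of Zfp936 −0.82 and −0.99. Zfp27 had 1.1 and 1.43 RPKM in HS and 3.28 and 3.76 in KCL, a log2 difference of −1.19 (SE 0.20, limma adjusted p = 0.0254). Zfp867 (0.689 and 0.887 against 2.57 and 1.93 RPKM, log2 difference −1.09) and Zfp954 (2.63 and 3.08 against 5.73 and 5.95 RPKM, log2 difference −0.92) were also lower in HS than in KCL. The differences of Zfp764 and Zfp954 from KCL changed sign when columns were scaled to a common sum, to 0.04 and 0.08.

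Zfp941 was highest in H2O2. It had 4.19 and 5.02 RPKM in H2O2, 1.13 and 1.47 in HS and 1.91 and 2.34 in KCL. Compared with H2O2, it was lower in HS by a log2 difference of −1.51 (SE 0.26, limma adjusted p = 0.0192) and in KCL by −0.96 (SE 0.26, limma adjusted p = 0.0478). Its UN values of 1.51 and 2.7 RPKM lay below both H2O2 values, though the log2 difference of 1.00 did not pass (limma adjusted p = 0.121). Zfp963 was lower in HS (0.566 and 1.17 RPKM) than in H2O2 (2.65 and 2.14 RPKM), with a log2 difference of −1.11, and Zfp110 by −0.96. The H2O2 values of Zfp963 overlapped those of KCL, and those of Zfp110 overlapped those of UN.

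Zfp119 was lowest in KCL. It had 1.14 and 1.31 RPKM in UN, 1.24 and 1.34 in HS, 0.412 and 0.466 in KCL, and 1.62 and 1.57 in H2O2. Both KCL libraries were below all 6 others, with a log2 difference of −1.16 from H2O2 (SE 0.16, limma adjusted p = 0.0165), and HS was above KCL by 0.93 (SE 0.16, limma adjusted p = 0.0257).

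These calls between stresses too depended on single libraries. In the 8 fits that each left out 1 library, the call of Zfp317 between KCL and H2O2 was kept in 6. Those between HS and H2O2 of Zfp746, Zfp317, Zfp941, Zfp764, Zfp936 and Zfp110 were kept in 4, and so were those of Zfp746 between KCL and H2O2 and of Zfp27 and Zfp119 between HS and KCL. The calls of Zfp119, Zfp763 and Zfp41 between KCL and H2O2 and of Zfp867 between HS and KCL were kept in 3. Those kept in 2 were Zfp367, Zfp503, Zfp846 and Zfp963 between HS and H2O2, Zfp941 between KCL and H2O2, and Zfp764 and Zfp954 between HS and KCL. Zfp367 between KCL and H2O2 was kept in 1, and Zfp936 between HS and KCL in 0.

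**Figure D4:**
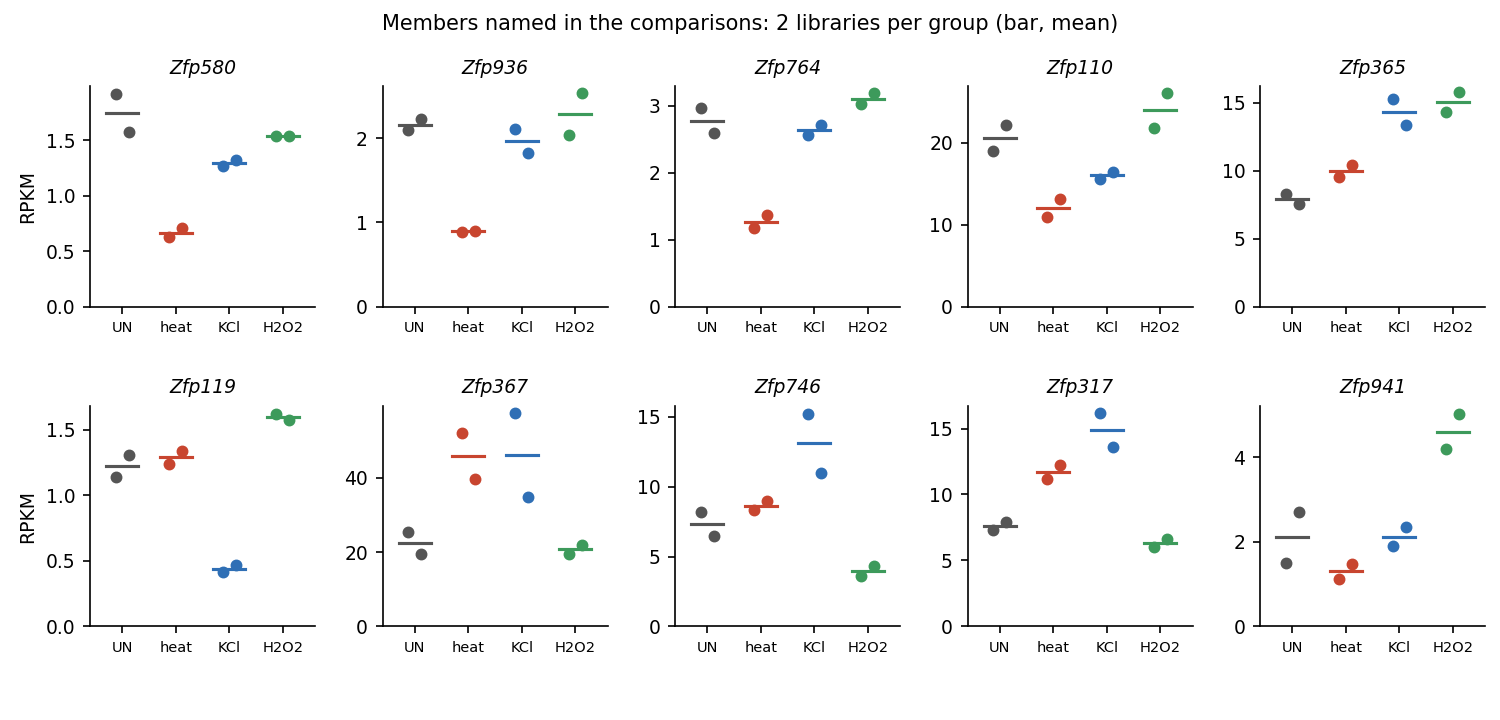
RPKM (y axis, from 0) of 10 named members in each group (x axis: UN, HS as heat, KCL, H2O2); points are the 2 libraries and bars their mean. Zfp580, Zfp936, Zfp764 and Zfp110 are lowest in heat shock, Zfp119 is lowest in KCL, Zfp746 and Zfp317 are highest in KCL and Zfp941 is highest in H2O2.

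The 250 bases before the first listed RefSeq start (build GRCm38.p6) are shown for 5 of these genes, because they stand for the members that fell in heat shock (Zfp764 and Zfp936) and for those highest in KCL or HS against H2O2 (Zfp746, Zfp317 and Zfp367). The tables were made on mm9, so the coordinates below belong to the RefSeq build only. Zfp764 lies at chr7:127406823-127407072 on the minus strand, Zfp936 at chr7:43177340-43177589 on the plus strand, Zfp746 at chr6:48086594-48086843 on the minus strand, Zfp317 at chr9:19621841-19622090 on the plus strand and Zfp367 at chr13:64153200-64153449 on the minus strand. Each is written 5′ to 3′, with matches to any of 7 searched motifs in capitals.
Zfp764: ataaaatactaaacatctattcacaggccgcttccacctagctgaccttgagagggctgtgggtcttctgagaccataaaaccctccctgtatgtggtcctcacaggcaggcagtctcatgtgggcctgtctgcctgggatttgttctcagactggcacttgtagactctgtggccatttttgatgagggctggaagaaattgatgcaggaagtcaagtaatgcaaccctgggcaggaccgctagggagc
Zfp936: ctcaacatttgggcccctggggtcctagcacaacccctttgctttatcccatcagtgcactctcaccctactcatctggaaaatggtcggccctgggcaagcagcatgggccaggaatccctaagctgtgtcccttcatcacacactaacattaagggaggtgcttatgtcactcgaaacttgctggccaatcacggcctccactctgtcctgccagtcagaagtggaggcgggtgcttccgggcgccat
Zfp746: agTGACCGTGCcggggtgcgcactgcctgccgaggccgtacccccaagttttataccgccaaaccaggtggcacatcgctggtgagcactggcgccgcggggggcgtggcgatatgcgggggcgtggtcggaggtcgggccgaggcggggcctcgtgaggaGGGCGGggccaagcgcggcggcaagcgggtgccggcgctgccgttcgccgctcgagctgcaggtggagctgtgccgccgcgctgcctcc
Zfp317: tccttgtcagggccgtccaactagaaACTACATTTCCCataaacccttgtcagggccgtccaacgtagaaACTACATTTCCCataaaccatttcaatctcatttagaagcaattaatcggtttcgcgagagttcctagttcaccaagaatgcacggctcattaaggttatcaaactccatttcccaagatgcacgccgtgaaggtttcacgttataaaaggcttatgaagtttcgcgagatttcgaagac
Zfp367: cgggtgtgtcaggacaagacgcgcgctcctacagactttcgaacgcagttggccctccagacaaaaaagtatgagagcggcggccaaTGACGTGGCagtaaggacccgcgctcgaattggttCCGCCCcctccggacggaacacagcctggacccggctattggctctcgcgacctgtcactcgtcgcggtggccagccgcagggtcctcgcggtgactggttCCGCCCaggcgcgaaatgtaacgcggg

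The 7 motifs were searched on both strands in the same 250 bases of 207 member genes and of 17492 protein-coding genes. The pair of heat shock element units TTCNNGAA occurred in 4.83% of member promoters and 6.44% of all, and the GC box GGGCGG in 44% and 42.7%. The AP-1 motif TGANTCA occurred in 4.35% and 6.22%, the cyclic AMP element TGACGTCA in 2.9% and 2.01%, and the antioxidant element TGACNNNGC in 13% and 10.5%. Of 2 patterns from the site of Zfp143, the core occurred in 1.93% and 0.372%, and the longer flanking stretch in 14% and 2.6%. The flanking stretch was added after the shares of the others had been seen. It was found in 29 member promoters, and the capitals in the Zfp317 sequence mark its 2 copies there; no other member promoter held more than 1. The promoters of Zfp764 and Zfp936 held none of the 7, and those of Zfp746 and Zfp367 held GC boxes and the antioxidant element. The 17492 genes, unlike the members, were not chosen by their level in these cells. Several of the 29 promoters belong to genes close together on chromosome 7, among them Zfp84, Zfp790, Zfp940 and Zfp420. They need not be independent cases. Motif letters can overlap one another, and these shares are descriptions of the windows searched.

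By role, the promoter activators and GC-box factors did not pass the test in any comparison. This list held 8 genes in 9 rows, among them Zfp143, an activator at many promoters, and Zfp410, which is known to drive Chd4. Over all tested rows, shares called per direction ran from 0.193% (lower in H2O2 against UN) to 14.2% (higher in KCL than in H2O2). In 9 rows, the lack of calls is therefore not a result about the role. Zfp143 had 4.99 and 5.61 RPKM in UN, 3.42 and 4.44 in HS, 6.09 and 5.66 in KCL, and 3.89 and 4.14 in H2O2. Its HS and H2O2 values lay below both UN values, with limma adjusted p of 0.2 and 0.326. Zfp410 had 13.6 and 15.8 RPKM in UN, 17.9 and 15.6 in HS, 19.5 and 18.4 in KCL, and 18.6 and 14.1 in H2O2, and only its KCL values lay above both UN values. Zfp148 had 4.64 and 5.19 RPKM in UN and 11.2 and 7.12 in KCL, a log2 difference of 0.80 that did not pass (limma adjusted p = 0.136).

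Of the 9 measured members in corepressor and chromatin complexes, none was called against UN in any stress. Over all tested rows, 0.193% to 4.08% were called per direction and stress against UN. Between KCL and H2O2, 2 of the 9 were higher in KCL, beside 14.2% of all tested rows. Zfp217, a partner of CoREST and CtBP, had 9.48 and 8.31 RPKM in KCL and 5.91 and 5.15 in H2O2 (log2 difference 0.64, SE 0.16, limma adjusted p = 0.0395). Zfp687, which works with ZMYND8, had 10.8 and 10.3 RPKM in KCL and 4.89 and 5.63 in H2O2 (log2 difference 0.94, SE 0.21, limma adjusted p = 0.0329). Both were intermediate in UN. The list's median was 0.40, beside 0.27 over all tested rows and 0.34 over rows of the same untreated level.

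Of the 10 members that act on RNA, translation, mitosis or ubiquitin, none was called against UN either. The same 0.193% to 4.08% of all tested rows per direction stand beside this. Zfp346, a protein that binds double-stranded RNA, had 11.7 and 10.7 RPKM in UN, 8.4 and 8.26 in HS, 15 and 12.4 in KCL, and 8.32 and 8.8 in H2O2. It was lower in HS than in KCL by a log2 difference of −0.68 (SE 0.14, limma adjusted p = 0.0375) and higher in KCL than in H2O2 by 0.64 (SE 0.14, limma adjusted p = 0.031). Against the same 14.2% of all tested rows, 3 of the 10 were higher in KCL than in H2O2. Zfp91, an E3 ubiquitin ligase, and Zfp830 were also higher in KCL than in H2O2, by 0.55 (limma adjusted p = 0.0496) and 0.63 (limma adjusted p = 0.0348). Zfp598, which marks stalled ribosomes, and Zfp622, which acts in assembly of the large ribosomal subunit, passed in no comparison.

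Among 5 members of retroelement and imprint silencing, only Zfp57 was called, in the comparison of HS with KCL. In that comparison 6.42% of all tested rows were lower in HS. Zfp809, which silences murine leukaemia virus sequences, had 3.11 and 4.29 RPKM in UN, 3.57 and 5.03 in HS, 5.16 and 4.57 in KCL, and 2.56 and 3.45 in H2O2. Zfp445, which acts with Zfp57 at imprints, had 7.28 and 11.5 RPKM in UN, 7.51 and 9.78 in HS, 16.5 and 12.6 in KCL, and 8.4 and 10.9 in H2O2. Its 2 KCL values lay above the UN values, with a limma adjusted p of 0.235. Zfp708 and Zfp819 of the same list lay below the level of 1 RPKM untreated, at 0.414 and 0.0143 RPKM. Of 4 mesenchymal and fat cell factors, Zfp516, which promotes brown fat, was a member and passed in no comparison, whereas Zfp423, Zfp521 and Zfp467 had 0, 0.0212 and 0 RPKM untreated.

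Members with and without the KRAB-like pattern had close medians. In HS against UN the median log2 difference was −0.04 with the pattern and −0.11 without it, in KCL 0.29 and 0.24, and in H2O2 −0.03 and −0.13. Of the 4 members that fell in HS, 3 carried the pattern and Zfp580 did not. Between KCL and H2O2, 13 of 119 rows with the pattern and 22 of 131 without it were higher in KCL, beside 14.2% of all tested rows and 16.7% of those at the same untreated level. The difference between these classes was not tested.

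The partners through which KRAB proteins act were read from 22 cofactor rows. In HS against UN 1 rose and 1 fell, beside 2.54% and 4.08% of all tested rows. None was called in KCL or H2O2 against UN. There, 0.43% (KCL) and 1.29% (H2O2) of all tested rows were higher and 0.262% and 0.193% lower. Between stresses, 1 was higher in HS than in KCL, 3 in HS than in H2O2 and 5 in KCL than in H2O2, beside 1.78%, 5.76% and 14.2% of all tested rows, and none was lower. Hdac2, a histone deacetylase of the NuRD complex, had 41.3 and 37.5 RPKM in UN and 68.7 and 67.1 in HS (log2 difference 0.78, limma adjusted p = 0.0354). Chd4, the NuRD remodeller, had 91 and 107 RPKM in UN and 45.6 and 52 in HS (log2 difference −1.01, limma adjusted p = 0.0271). Trim28 had 154 and 101 RPKM in UN, 142 and 142 in HS, 136 and 120 in KCL, and 97.2 and 86.2 in H2O2, and Setdb1 24.4 and 23.8, 17.9 and 20.9, 27 and 23.6, and 14.8 and 21.1 RPKM. Neither passed in any comparison.

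Neighbouring members were followed along the chromosomes, in RefSeq gene order. There were 7 runs of at least 4 members with at most 1 coding gene between them, holding 43 members. On chromosome 9, the run of Zfp560, Zfp26, Zfp426, Zfp266 and Zfp846 had log2 differences of 0.25 to 0.45 in HS and 0.30 to 0.66 in KCL against UN. No member of it was called in either, and 3 of the 5 were higher in KCL than in H2O2, beside 14.2% of all tested rows. The runs were picked with their values known. Zfp266 had 12 and 10.9 RPKM in UN, 12.8 and 14.6 in HS, 20.1 and 16.7 in KCL, and 10.4 and 11.4 in H2O2. The 5 members from Zfp54 to Zfp948 on chromosome 17 had log2 differences of 0.45 to 1.01 in KCL against UN, with 0 called; 200 of the 250 members were above 0 in that comparison, where the median of all tested rows was 0.18. The 5 from Zfp579 to Zfp580 on chromosome 7 had a median of −0.30 in HS, at −0.94 to 0.02.

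**Figure D5:**
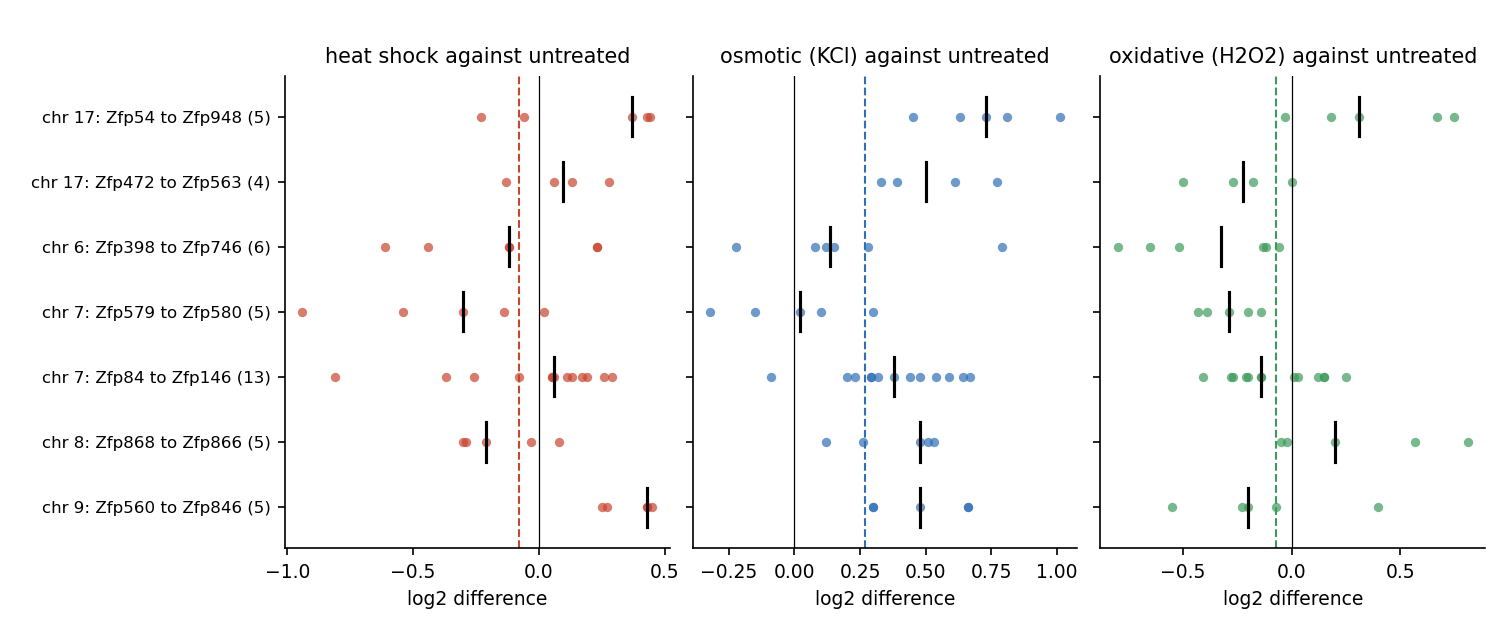
Log2 difference from untreated (x axis) of the members in each of 7 runs of neighbouring genes (rows, with the number of members in parentheses), in 3 panels for heat shock, osmotic and oxidative stress. Points are members, the black bar is the run's median and the dashed line is the median of all 250 members; the chromosome 9 run sits at 0.25 to 0.45 in heat shock.

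Such neighbours can share reads where their sequences are close, and the strand that was counted is not given, so single values within the runs are uncertain. Correlations between a member's log2 difference from UN and that of the gene next to it were weak on both sides. For the gene just upstream, Pearson correlations were 0.34 in HS, 0.30 in KCL and 0.20 in H2O2 over 79 neighbours on the same strand, and 0.17, 0.25 and 0.07 over 74 on the other strand. For the gene just downstream they were 0.23, 0.27 and 0.08 over 84 on the same strand, and 0.21, 0.13 and 0.20 over 57 on the other strand. The pairs come from the same libraries and some genes occur in more than 1 pair, so this is a description across genes. What part reads from a neighbouring gene have in the members' values was not tested.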

How the data were processed

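Nuclear RNA of 8 NIH3T3 libraries was sequenced after ribosomal depletion, with strand-specific dUTP libraries per the labels' protocols. The authors deposited RPKM per gene model in 2 tables, 1 per replicate number, per the file headers. Bowtie, SAMtools and Cufflinks and the build mm9 are named in the submitters' processing notes; their versions were not given in the sources used here, nor were the annotation and the counted strand. Counts are not part of the tables, so depth and counting intervals cannot be stated.

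From these values, rows that reached 0.5 RPKM in 2 or more of 8 libraries (16056) were fitted as log2(RPKM + 0.5) by group in limma 3.58.1 (R 4.3.3, empirical Bayes with a trend, 2-sided contrasts). P-values were adjusted by Benjamini-Hochberg over all tested rows, and 0.05 was the threshold. All 4 groups shared 1 estimate of the spread. The fit was tested on simulated data. Samples were grouped by their labels. Alternatives were other pseudocounts, filters and scalings, only 2 groups, a replicate block, other membership limits and leaving out each library. The scaling without the row AC113316.1 was chosen after seeing the data.

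The members and lists were chosen with earlier results of these data known. Named genes are those called with the same direction in both tables (up to 10 per direction against UN, up to 5 between stresses), the 5 highest members, the rows next to the limit and members of the role lists. Genes named as nearest to the threshold, Zfp938 and the neighbouring runs were chosen after their values were seen, as was the rule for runs. Finger and KRAB-like patterns were searched in proteins translated from GENCODE M21 coding sequences, because a table of RefSeq proteins was not used here. The KRAB-like pattern was adjusted 4 times against the list of matching member genes; it misses some genes that carry the domain, so no match says nothing. The promoters shown and the 7 motifs were chosen after expression values were seen, and 1 motif after the shares of the others. RefSeq promoters matched 207 of 248 names and gene order matched 248.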

Additional observations from a re-analysis of the deposited data

How the results depend on the processing

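Counts of members called moved with the scaling of libraries, with no filter and with a replicate block. They also moved with only the 2 groups fitted and with leaving out a library. Medians moved with the scaling. The cause was not tested, except that fits on only 2 groups or without a library rest on fewer samples. In this paragraph the order is HS against UN, KCL against UN, H2O2 against UN, HS against KCL, HS against H2O2, KCL against H2O2. Counts reported were 4, 0, 1, 9, 23 and 37, and medians −0.08, 0.27, −0.07, −0.31, 0.04 and 0.36. With median of ratios the counts were 10, 0, 2, 1, 27 and 16. With quantile scaling they were 9, 0, 2, 1, 30 and 15, with a common sum 0, 0, 0, 1, 0 and 1, and without the row AC113316.1 16, 0, 0, 2, 24 and 4. With no filter they were 0, 0, 1, 4, 15 and 18, and with only the 2 groups 0, 0, 0, 0, 12 and 0. A filter at 1 RPKM gave 0 in H2O2 against UN, and membership by the mean of all 8 libraries gave 2. Shares of all tested rows called under these settings are not given, so the counts are not results about the members. Medians were 0.03, 0.09, 0.04, −0.01, 0.05 and 0.09 (median of ratios), −0.02, 0.08, −0.02, −0.06, 0.06 and 0.13 (quantile), 0.34, −0.31, 0.11, 0.67, 0.30 and −0.39 (common sum), and 0.27, 0.09, 0.05, 0.22, 0.29 and 0.08 without that row. In the common sum Zfp764 and Zfp954 reversed between HS and KCL, at 0.04 and 0.08.

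Leaving out each library gave counts of 0 to 5, 0 to 6, 0 to 0, 0 to 7, 0 to 21 and 0 to 32, and medians of −0.12 to −0.02, 0.12 to 0.39, −0.16 to 0.02, −0.44 to −0.2, −0.07 to 0.14 and 0.22 to 0.49; the lone library left in a group is assumed to vary like the other groups. The labels do not say whether replicate numbers pair the samples, and the main fit did not use the numbers. Correlations of same-numbered deviations ran from 0.062 to 0.264 over all tested rows and from −0.342 to 0.53 over the members. Whether same-numbered libraries share an effect was not tested. With a replicate block the counts were 14, 2, 3, 15, 30 and 59. Of 28 named differences, 28 kept their call under the block, 21 with median of ratios or quantile scaling, 14 with no filter, 12 without the row AC113316.1, 8 with only the 2 groups and 2 with the common sum. Without 1 library, between 1 (either HS library) and 19 (KCL replicate 2) kept it.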
